A study of Mus musculus with 2 samples.

Results

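Interferon-inducible genes and interferon regulatory factor (IRF) genes were compared in luminal cells of the mouse mammary gland, sorted into a Venus High and a Venus Low population. The members are the genes whose symbol begins with a family name (Irf, Oas, Oasl, Gbp, Ifi, Ifit, Ifitm, Trim or Parp) and a number or with Ifih, Isg, Iigp, Irgm, Igtp, Rsad2, Usp18, Bst2, Dhx58 or Ddx58, together with Mx1 and Mx2. Membership therefore went by name, among genes with a probe set of their own in the value table. As that table holds no probe set lower in Venus High cells, a named gene measured only as lower could not be counted. The name rule and the gene lists used below were chosen with earlier results of these data known. The shares below are therefore not those of lists fixed without the data. In all, 91 of the 13869 genes with a probe set of their own in the value table were members. Both populations came from 1 pool of 3 adult virgin females of 5 months on an FVB background. These mice were Tbx3-Venus-KI heterozygotes, with 1 Tbx3 allele replaced by the Venus fluorescent reporter, so both groups also carried a single working copy of Tbx3. Luminal Venus High cells have high Tbx3 promoter activity and luminal Venus Low cells low or none, and 200000 of each were sorted after dead cells, CD45+ lymphocytes and stromal cells had been gated out. Each population was hybridized to 1 GeneChip Mouse Genome 430 2.0 array, so there are no replicates, no difference below has a replicate check, and the number of arrays limits the precision.

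Interferons are secreted cytokines that warn cells of infection. Type I interferons (alpha and beta) and interferon lambda signal through JAK kinases to a complex that holds STAT2 and IRF9 and binds the interferon-stimulated response element (ISRE) of antiviral genes. Interferon gamma acts through another DNA element, the gamma-activated site (GAS). The induced proteins sense viral RNA, block viral entry, degrade RNA or attack the vacuoles of intracellular parasites. TRIM proteins are a family of mostly RING-type ubiquitin ligases and PARP proteins transfer ADP-ribose. Part of each family is induced by interferon, while other members act in chromatin control or DNA repair.

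The array signal is given below on a linear scale, where the floor is a signal of 10, and differences are given on the log2 scale as Venus High minus Venus Low. Of 29338 probe sets in the value table, 12968 were higher in Venus High cells, 16370 lay at the floor on both arrays and 0 were lower. Genes that are lower in Venus High cells are therefore not analysed here, and every difference is 0 or above before any rescaling. The one-sided table also means that a median difference lies above 0 by construction. Of the 158 protein-coding genes in the RefSeq table of GRCm38.p6 that fit the name rule, 69 had no probe set of their own in the table and are not analysed here. Irf1, Irf7, Isg15, Ifih1, Ifit1, Ifit2, Ifit3, Ifitm1, Ifitm2, Gbp2, Irgm1 and Irgm2 are among these 69. As a check of the sort, Tbx3 had a log2 signal of 8.72 on the Venus High array and 3.62 on the Venus Low array, and the receptor genes Esr1 and Pgr were higher by 2.98 and 6.88 on the same scale. These values are of the brightest probe sets. Another Tbx3 probe set differed by 4.11, and its remaining ones were at the floor on both arrays. The other probe sets differed by 3.42 and 0.42 for Esr1 and by 4.51 and 1.27 for Pgr. Where a gene had several probe sets, their log2 differences spread with a pooled SD of 0.31 (1062 genes), which covers these 2 arrays only and not the spread between animals. In bulk samples such as these, fewer expressing cells and less RNA per cell cannot be told apart.

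Of the 91 members, 30 reached a signal of 100 on at least 1 array, 21 lay between the floor and 100, and 40 did not rise above the floor in either population. Venus High cells exceeded Venus Low cells by 4-fold or more for 6 of the 30, namely Trim35, Usp18, Iigp1, Parp3, Gbp6 and Trim29. The share at least 4-fold higher was thus 20.0% of the members, against 8.58% of all 3847 genes that reached 100. A further 8 members were at least 2-fold higher, namely Trim24, Ifi35, Oas1a, Ifitm3, Isg20, Bst2, Parp12 and Trim16. At least 2-fold higher were 46.7% of the members (14 of 30) and 21.6% of all genes. As no probe set is lower in Venus High cells, every gene counted here reached 100 on the Venus High array. Of the 14 members, Trim35, Usp18, Parp3, Gbp6, Trim29, Oas1a, Bst2, Parp12 and Trim16 were below 100 in Venus Low cells. These were counted only through the population where they are high. Iigp1, Trim24, Ifi35, Ifitm3 and Isg20 were above 100 on both arrays. Both shares depend on this filter, so the gap between them is a description only. The median difference was 0.70 in the members and 0.46 in all genes. Without the TRIM and PARP families it was 1.39 over 14 members, of which 8 were at least 2-fold higher, while the 16 TRIM and PARP genes had a median of 0.53. These shares describe a pair of arrays and were not tested. Median centring of the arrays lowers every difference by 0.66. In a one-sided table this shift is above 0 by construction and cannot be read as a difference in scale between the arrays. After centring, 28 members and 3737 genes reached 100. Of these, 10.7% of the members and 5.46% of all genes were at least 4-fold higher. At least 2-fold higher were 25% of the members and 10.2% of all genes. With the floor raised to 100, the 4-fold share was lower in the members than in all genes, at 3.33% (1 of 30) of the members and 4.39% of all genes, while 20.0% of the members and 15.1% of all genes passed 2-fold.

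**Figure D1:**
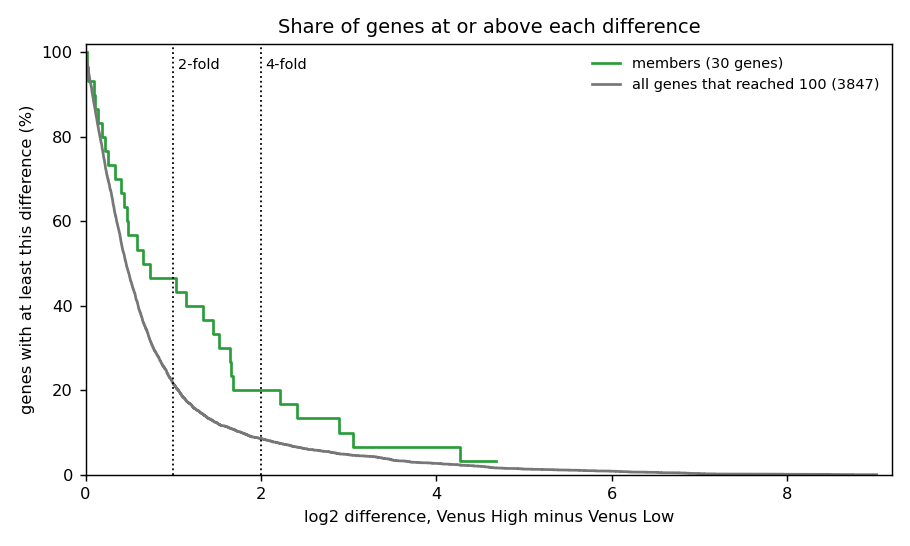
Share of genes (vertical axis, %) with at least the log2 difference on the horizontal axis, Venus High minus Venus Low, for the 30 members that reached a signal of 100 (green) and for all 3847 such genes (grey), 1 array per population. At the dotted line of 2-fold the members stand at 46.7% and all genes at 21.6%, and the largest member difference is 4.68. Every gene shown reached 100 on the Venus High array, so both curves depend on that filter.

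**Figure D2:**
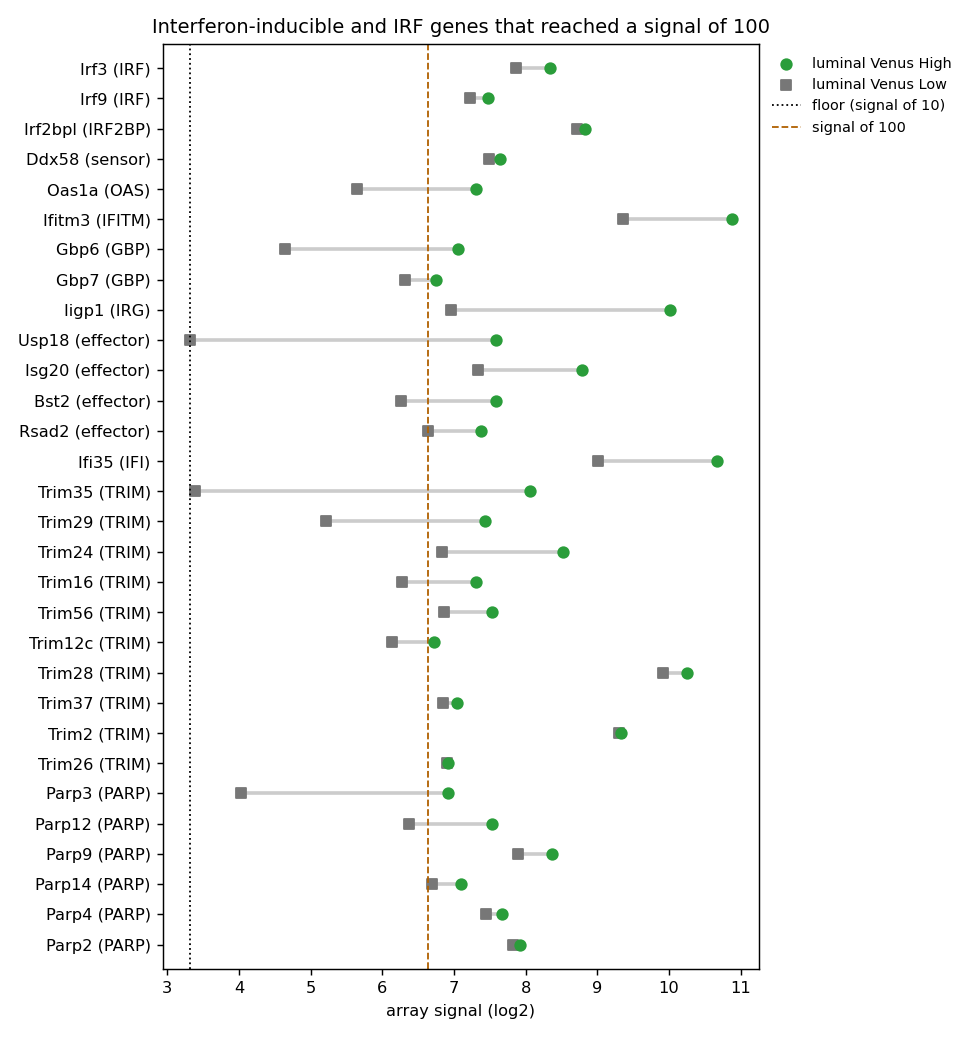
Array signal (log2, horizontal axis) of the 30 members that reached a signal of 100, with green circles for Venus High and grey squares for Venus Low cells (1 array each), grouped by role and ordered by difference within a role. The dotted line marks the floor, where Usp18 lies in Venus Low cells, and the dashed line a signal of 100. Gaps are wide for Usp18, Trim35 and Iigp1, and the symbols of Trim2 and Trim26 nearly coincide.

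The IRF genes differed little between the populations where their signal was high enough to compare. Irf3, the factor that switches on interferon beta once TBK1 has phosphorylated it, had a signal of 325 in the Venus High and 233 in the Venus Low population, a difference of 0.49. Its 3 other probe sets, all below 100 and 1 of them at the floor in Venus Low cells, differed by 0.41 to 0.54, so the 4 probe sets gave nearly the same value. Irf9, the DNA-binding partner of STAT2, had 178 in Venus High cells, against 149 in Venus Low cells, a difference of 0.25, which is below the SD between probe sets. Both differences become negative after median centring. As the table is one-sided, that shift is above 0 by construction and cannot settle their direction, which has no replicate check. Irf2, a repressor that competes with IRF1 for its sites, had 87.0 on the Venus High array and 81.6 on the Venus Low array. Irf5, which induces inflammatory cytokines in macrophages, stayed near the floor at 20.6 in the Venus High and 17.8 in the Venus Low population.

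The 2 IRF genes best known from lymphoid and myeloid cells lay below a signal of 100 but were higher in Venus High cells. Irf4, which directs plasma cell and lymphocyte differentiation, had a signal of 86.7 in Venus High cells and was at the floor in Venus Low cells, a difference of at least 3.12. Its other probe set had log2 values of 4.18 in Venus High cells, against 3.88 in Venus Low cells, a difference of 0.30, so its probe sets disagreed. Irf8, which directs monocyte and dendritic cell development, had 38.6 on the Venus High array and 11.7 on the Venus Low array (1.73), and its other probe set was higher by at least 1.87. With the floor raised to 100, neither gene differs. Immune cell markers were at or near the floor in both populations. Probe sets were present for 12 of 16 such markers, and 11 of these, Ptprc, Cd3e, Ms4a1, Itgam, Itgax, Lyz2 and Tyrobp among them, were at the floor on both arrays. The remaining one, Cd8a, had a log2 value of 4.19 in the Venus High and 3.62 in the Venus Low population. The summed signal of the 12 was 128 in Venus High cells, against 122 in Venus Low cells, where 12 genes at the floor would give most of it. Adgre1, Cd68 and Csf1r are not analysed here. A marker probe set higher in Venus Low cells would be absent from the one-sided table, so these values do not cover such signal.

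The IRF2-binding proteins are corepressors that attach to IRF2 and related factors. Irf2bpl had a signal of 456 on the Venus High array and 422 on the Venus Low array, and Irf2bp1 had 70.5 in the Venus High and 63.3 in the Venus Low population. Their differences of 0.11 and 0.15 are smaller than the SD between probe sets. The RNA sensors were also close between the populations. Ddx58, which encodes the RNA helicase RIG-I, had 199 in Venus High cells, against 180 in Venus Low cells (0.15), and its 2 other probe sets, both below 100, differed by 0.01 and 0.33. Dhx58, which encodes the related helicase LGP2, had 29.1 on the Venus High array and 26.1 on the Venus Low array.

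Of 6 listed genes of antiviral effector proteins, 4 were in the table and all 4 reached 100, while Isg15 and Isg20l2 had no probe set of their own. Usp18, Isg20 and Bst2 differed by 2-fold or more (75%, against 21.6% of all genes), higher in Venus High cells, and Rsad2 by less. Of the 4, only Isg20 was above 100 in Venus Low cells too. Usp18 encodes the protease that removes the ubiquitin-like protein ISG15 from its targets and dampens signaling at the type I interferon receptor. Its signal was 193 in Venus High cells and at the floor in Venus Low cells, a ratio of at least 19.3-fold, which a floor of 100 reduces to a log2 difference of 0.95. Isg20, an RNA exonuclease, had 441 in the Venus High and 162 in the Venus Low population, a 2.73-fold difference. Bst2, which encodes tetherin, a protein that holds budding virus particles at the cell surface, had 193 in Venus High cells, against 76.3 in Venus Low cells, a 2.53-fold difference. Rsad2, which encodes viperin, an inhibitor of viral replication, had 166 on the Venus High array and 99.7 on the Venus Low array, a difference of 0.74. Its 2 dimmer probe sets differed by 0.88 and 1.23, and median centring lowers the value of 0.74 to 0.08. The difference of Isg20 (1.45) and that of Bst2 (1.34) stay above 0.66, the shift that median centring makes, but both then fall below 2-fold.

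Ifitm3 and Ifi35 combined signals well above 100 in both populations with differences of more than 2-fold. Ifitm3, a membrane protein that blocks the fusion of entering viruses, had 1875 in the Venus High and 653 in the Venus Low population, a 2.87-fold difference. Ifi35, a leucine zipper protein that binds the interferon-induced protein NMI, had 1631 in Venus High cells, against 516 in Venus Low cells, a 3.16-fold difference. All 3 probe sets of Ifi35 reached 100 and differed by 1.12, 1.61 and 1.66. The floor has no part in these values, since both signals of each gene lie above 100. Under median centring Ifi35 stays just past 2-fold and Ifitm3 does not (0.86), and under quantile normalization neither reaches 2-fold. Oas1a, which encodes an oligoadenylate synthetase that activates RNase L when it meets double-stranded RNA, had 158 on the Venus High array and 50.2 on the Venus Low array, a 3.14-fold difference that a floor of 100 reduces to a log2 difference of 0.66. Of the 8 oligoadenylate synthetase genes in the table Oas1a alone reached 100, and Oas1b, Oas1f, Oas1h and Oas3 were at the floor on both arrays. Oas2 had 28.1 in the Venus High and 16.9 in the Venus Low population, and Oasl2 had 28.9 in Venus High cells, against 22.3 in Venus Low cells. Both IFIT genes in the table, Ifit1bl1 and Ifit1bl2, were at the floor on both arrays, as were 6 of the 8 other IFI genes.

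The interferon-inducible GTPases, which assemble on the vacuoles of intracellular pathogens, held the largest difference among members with both signals above 100, that of Iigp1. Iigp1, an immunity-related GTPase known for its role against Toxoplasma, had a signal of 1031 on the Venus High array and 124 on the Venus Low array, an 8.29-fold difference. Its other probe set gave almost the same difference, 3.06 beside 3.05 on the log2 scale. Iigp1 is the one member still past 4-fold when the floor is set to 100. Gbp6, a guanylate-binding protein, had 133 in the Venus High and 25 in the Venus Low population, a 5.32-fold difference, and its other probe set differed by 2.22. With the floor at 100 the Gbp6 difference shrinks to 0.41. Gbp7, a second guanylate-binding protein, had 108 in Venus High cells, against 79.4 in Venus Low cells (0.44), and 0.52 on its other probe set. Igtp, another immunity-related GTPase, had 67.3 on the Venus High array and 53.7 on the Venus Low array, and Mx1 and Gbp8 were at the floor on both arrays.

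To show which known interferon response elements lie at the starts of these genes, RefSeq promoter sequences (GRCm38.p6, 250 bases before to 50 after each start) were searched for the core of the ISRE and for the GAS. The ISRE core was GAAA, any 2 bases and GAAA on either strand, and the GAS was TTC, any 3 bases and GAA, which reads the same on both strands. Of the 91 members 71 had a promoter sequence, among them 22 of the 30 that reached 100, while Usp18, Iigp1, Gbp6, Trim35, Trim29, Trim16, Parp9 and Parp14 had none. An ISRE match was found in 10 of these 22 genes (45.5%), in 3.99% of all 27025 genes with a promoter sequence and in 3.47% of the 3172 such genes that reached 100. Counted by promoter, as a gene can have several starts, the shares were 33.3% of 30 promoters of the members and 3.44% of all 32851 promoters. Members below a signal of 100 held a match in 14 of 49 genes (28.6%). ISRE matches stood in 3 of the 8 genes with a promoter that were at least 2-fold higher and in 7 of the 14 that were not. A GAS match stood in 5 of those 8 genes, namely Bst2, Ifi35, Ifitm3, Isg20 and Oas1a, and in 1 of the 14, Gbp7. By family, it stood in 0 of the 11 TRIM and PARP genes with a promoter that reached 100 and in 6 of the 11 others. Of the members below 100, 8 of 49 (16.3%) held a GAS match. In all genes that reached 100 its share was 8.17%. These counts are small, no test was made, and a match is a description of the letters and not of a bound site.

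The promoters of 4 members are shown in full because they carry an ISRE match beside differences from 0.74 to 1.65, with the ISRE matches in capitals, 5′ to 3′ on the strand of the gene. In Oas1a and Bst2 a pair of matches overlap. In Ifitm3 they follow each other just after the start, and in Rsad2 a single match lies on the opposite strand. A GAS match, not marked here, overlaps an ISRE match in Bst2 and in Ifitm3 and lies apart from them in Oas1a.
Oas1a, chr5:120907476-120907775, minus strand: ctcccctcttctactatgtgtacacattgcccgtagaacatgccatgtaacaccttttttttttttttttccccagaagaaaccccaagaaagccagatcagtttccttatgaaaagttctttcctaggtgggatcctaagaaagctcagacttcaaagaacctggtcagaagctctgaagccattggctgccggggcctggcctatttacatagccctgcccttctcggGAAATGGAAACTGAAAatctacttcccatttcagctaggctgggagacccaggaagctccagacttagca
Bst2, chr8:71537423-71537722, minus strand: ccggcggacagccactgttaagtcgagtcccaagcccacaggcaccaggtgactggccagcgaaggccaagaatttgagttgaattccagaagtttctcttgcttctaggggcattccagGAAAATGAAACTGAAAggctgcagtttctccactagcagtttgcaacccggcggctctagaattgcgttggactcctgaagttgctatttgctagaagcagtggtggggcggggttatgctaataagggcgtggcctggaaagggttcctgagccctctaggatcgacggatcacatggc
Ifitm3, chr7:141010695-141010994, minus strand: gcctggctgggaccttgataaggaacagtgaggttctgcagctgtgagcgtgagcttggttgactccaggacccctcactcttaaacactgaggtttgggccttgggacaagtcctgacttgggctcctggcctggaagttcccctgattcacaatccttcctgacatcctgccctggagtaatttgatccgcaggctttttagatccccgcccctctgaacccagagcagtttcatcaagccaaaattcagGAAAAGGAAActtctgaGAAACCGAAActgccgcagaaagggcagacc
Rsad2, chr12:26456403-26456702, minus strand: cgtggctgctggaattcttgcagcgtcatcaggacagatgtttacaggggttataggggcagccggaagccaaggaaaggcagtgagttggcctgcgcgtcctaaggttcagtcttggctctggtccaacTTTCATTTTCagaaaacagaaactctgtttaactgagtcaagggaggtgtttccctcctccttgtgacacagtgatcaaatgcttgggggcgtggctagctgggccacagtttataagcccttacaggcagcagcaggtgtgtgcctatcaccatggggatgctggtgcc

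The stretches below show the ISRE matches, again in capitals, of 5 members that differed little between the populations (0.01 to 0.59), so the same element occurs there too. In Parp4 and Trim26 a pair of matches overlap, and in all of these but Parp4 the matches lie on the strand opposite to the gene. Trim2, whose match lies in 1 of its promoters, is not shown.
Trim12c, chr7:104353344-104353403, minus strand: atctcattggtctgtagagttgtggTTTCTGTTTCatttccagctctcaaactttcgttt
Gbp7, chr3:142530258-142530317, plus strand: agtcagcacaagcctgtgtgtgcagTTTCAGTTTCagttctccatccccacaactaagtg
Parp4, chr14:56575444-56575509, plus strand: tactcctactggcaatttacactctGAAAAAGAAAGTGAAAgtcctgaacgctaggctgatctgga
Ddx58, chr4:40239789-40239848, minus strand: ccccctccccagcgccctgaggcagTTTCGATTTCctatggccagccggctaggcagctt
Trim26, chr17:36836961-36837026, plus strand: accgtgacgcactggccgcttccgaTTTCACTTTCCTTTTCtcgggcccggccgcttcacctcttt

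Ifi35 and Isg20 had no ISRE match in these windows but each had a GAS match, which is in capitals here.
Ifi35, chr11:101448394-101448452, plus strand: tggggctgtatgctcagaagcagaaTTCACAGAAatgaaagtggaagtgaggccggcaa
Isg20, chr7:78913326-78913384, plus strand: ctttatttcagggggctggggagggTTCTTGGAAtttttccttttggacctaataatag

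**Figure D3:**
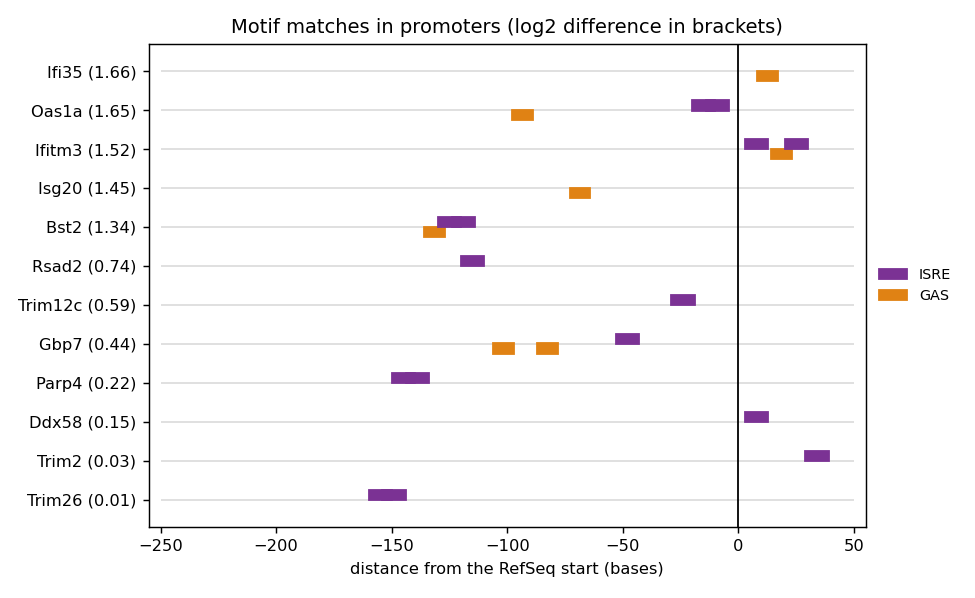
Position of ISRE (purple) and GAS (orange) matches in the promoters of the 12 members that reached a signal of 100 and held a match, as distance in bases from the RefSeq start (horizontal axis), ordered from top to bottom by log2 difference between Venus High and Venus Low cells (in brackets). GAS matches lie mostly in the upper rows and in no TRIM or PARP gene, and ISRE matches occur from Oas1a (1.65) down to Trim26 (0.01).

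The TRIM genes were split between a few large differences and many genes near or at the floor. There were 41 TRIM genes in the table, 23 of them at the floor in both populations and 10 with a signal that reached 100. Of these 10, 4 (40.0%, against 21.6% of all genes) were 2-fold or more higher in Venus High cells. Trim35, Trim29 and Trim16 among these 4 reached 100 in Venus High cells only. Trim35, a RING-type ubiquitin ligase, had a signal of 267 in the Venus High and 10.4 in the Venus Low population, a 25.6-fold difference that a floor of 100 reduces to a log2 difference of 1.42. The value rests on 1 probe set, as its 2 other probe sets stayed at the floor. Trim29, a TRIM protein without a RING domain, had 173 in Venus High cells, against 37.1 in Venus Low cells, a 4.66-fold difference that a floor of 100 reduces to a log2 difference of 0.79. Trim24, a transcriptional coregulator that binds nuclear receptors, the estrogen receptor among them, had 366 on the Venus High array and 114 on the Venus Low array, a 3.21-fold difference. Its 2 dimmer probe sets differed by 0.27 and 0.36. Trim16, also known as estrogen-responsive B box protein, had 158 in the Venus High and 77.2 in the Venus Low population, a 2.05-fold difference, and 0.25 on its other probe set.

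The other TRIM genes that reached 100 differed by less than 2-fold. Trim28, the corepressor that KRAB zinc finger proteins recruit to silence chromatin, had 1222 in Venus High cells, against 968 in Venus Low cells, and its probe sets differed by 0.34 and 0.17. Trim2, a ubiquitin ligase of neurons, had 641 on the Venus High array and 629 on the Venus Low array, and Trim26 had 121 in the Venus High and 120 in the Venus Low population. Their differences of 0.03 and 0.01 leave these genes nearly equal on both arrays as deposited. Trim56, a ligase that promotes antiviral signaling, had 184 in Venus High cells, against 117 in Venus Low cells (0.66). Trim12c had 105 on the Venus High array and 70.1 on the Venus Low array (0.59), and Trim37, a ligase for histone H2A, had 132 in the Venus High and 115 in the Venus Low population (0.19).

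Among the PARP genes, 6 of 8 in the table reached 100. Of the 6, 2 (33.3%, against 21.6% of all genes) were 2-fold or more higher in Venus High cells. Both of them, Parp3 and Parp12, reached 100 in Venus High cells only. Parp3, which acts in the repair of DNA double-strand breaks, had 121 in Venus High cells, against 16.3 in Venus Low cells, a 7.39-fold difference that a floor of 100 reduces to a log2 difference of 0.27. Its other probe sets gave 1.62 and at least 4.27, so the size of the difference varied widely between its probe sets. Parp12, an interferon-induced mono-ADP-ribosyltransferase, had 184 on the Venus High array and 83.2 on the Venus Low array, a 2.22-fold difference. Parp9 and Parp14, macrodomain proteins that act together in interferon responses, differed by 0.47 and 0.40. Parp9 had 330 in the Venus High and 239 in the Venus Low population, and Parp14 had 137 in Venus High cells, against 104 in Venus Low cells. Parp4, the PARP of vault particles, differed by 0.22, and Parp2, a DNA repair enzyme, by 0.09. Both of these lie below the SD between probe sets.

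**Figure D4:**
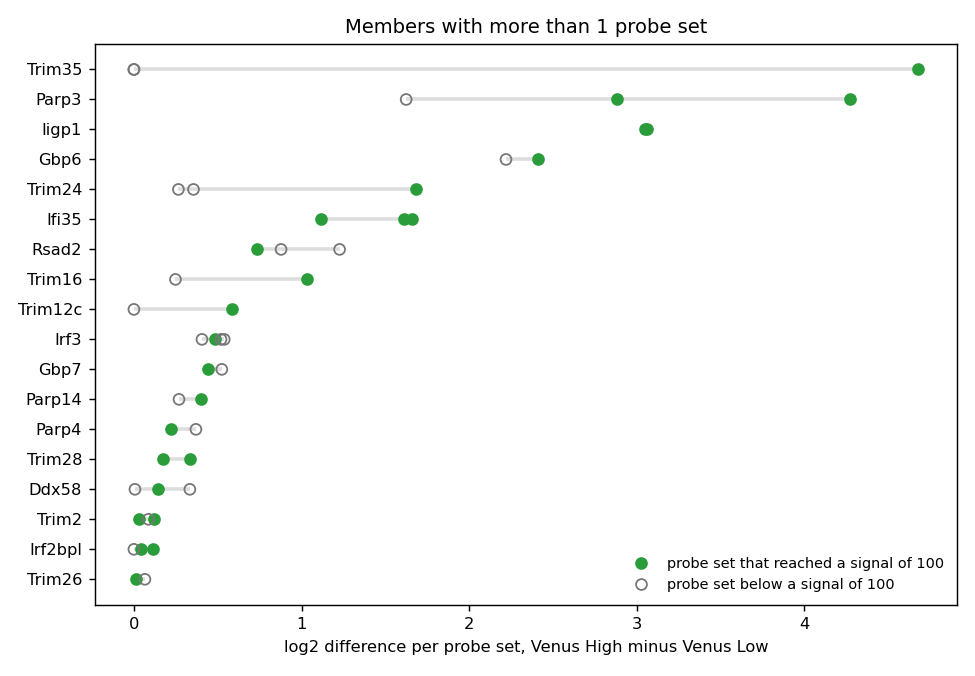
Log2 difference of each probe set, Venus High minus Venus Low (horizontal axis), for members with more than 1 probe set of which at least 1 reached a signal of 100. Filled circles reached 100 and open circles did not. The probe sets of Iigp1 coincide near 3.05, those of Parp3 spread from 1.62 to 4.27, and those of Trim35 lie at 4.68 and at 0.

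The rest of the interferon pathway was described by 6 lists of 90 genes outside the name rule, of which 52 were represented in the table and 17 reached 100. Of these 17, 6 were 2-fold or more higher in Venus High cells (35.3%, against 21.6% of all genes). Among the 6, Ptpn6, Tor3a and Lgals3bp reached 100 in Venus High cells only. The median difference of the 17 was 0.59. Interferon ligand genes lay at or near the floor. Probe sets were present for 9 of 21 listed, 8 of the 9 did not rise above the floor in either population and 0 reached 100. Of the receptor genes, Ifnlr1, the specific chain of the interferon lambda receptor, had a signal of 149 on the Venus High array and 98.5 on the Venus Low array, and Ifnar1 had 19.7 in Venus High cells and was at the floor in Venus Low cells. Jak2, a kinase of the interferon gamma and prolactin receptors, had 681 in the Venus High and 208 in the Venus Low population, a 3.27-fold difference (1.71), and its other probe set differed by 1.64. Stat2 stayed below 100, with 39.4 in Venus High cells, against 11.6 in Venus Low cells. Stat3, Jak1 and Tyk2 are not analysed here.

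All 3 inhibitors of JAK signaling that reached 100 were more than 2-fold higher in Venus High cells (100%, against 21.6% of all genes). Ptpn6 reached 100 in Venus High cells only, and the one-sided table holds no gene that is lower there. Of the 7 inhibitors listed, 5 were in the table, and Ptpn2 and Pias1 stayed below 100 with differences of 0.20 and 0.04. Socs3 had the largest difference among the 17 pathway genes. Socs3, which STAT proteins induce and which blocks JAK kinases, had 3566 on the Venus High array and 519 on the Venus Low array, a 6.87-fold difference. Its 3 probe sets gave nearly equal differences of 2.75, 2.78 and 2.81. Ptpn1, a phosphatase that acts on JAK2 and TYK2, had 1093 in the Venus High and 412 in the Venus Low population, a 2.65-fold difference. Median centring takes the Ptpn1 difference to 0.75 on the log2 scale. Ptpn6, which encodes the phosphatase SHP-1, had 129 in Venus High cells, against 31.8 in Venus Low cells, a 4.06-fold difference that a floor of 100 reduces to a log2 difference of 0.37. The kinase gene Tbk1 and the gene of its adaptor Azi2, which act upstream of IRF3, differed by 0.18 and 0.16.

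Among 33 other interferon-stimulated genes, 25 were represented in the table, 10 reached 100 and 2 of these 10 (20.0%, against 21.6% of all genes) were 2-fold or more higher in Venus High cells, a share near that of all genes. Tor3a, an interferon-induced torsin ATPase, had 151 on the Venus High array and 32.4 on the Venus Low array, a 4.66-fold difference, while 2.05 and 1.42 were the log2 differences of its remaining probe sets. With the floor at 100 the Tor3a difference shrinks to 0.60. Lgals3bp, a secreted galectin-binding glycoprotein, had 157 in the Venus High and 75.0 in the Venus Low population, a 2.10-fold difference that median centring takes to 0.41 on the log2 scale. Nmi, the partner of IFI35, had 367 in Venus High cells, against 196 in Venus Low cells (0.90). Xaf1, an interferon-induced partner of the apoptosis inhibitor XIAP, had 122 in Venus High cells, against 70.8 in Venus Low cells (0.79). Pnpt1, a mitochondrial RNA exonuclease, differed by 0.49 and Adar, an RNA-editing deaminase, by 0.31. Lgals9 and Nlrc5 stayed below 100 on both arrays. Lgals9, a galectin, had 80.5 in the Venus High and 25.5 in the Venus Low population, and Nlrc5, a regulator of MHC class I genes, had 43.9 on the Venus High array and 16.1 on the Venus Low array. The remaining genes of this list that reached 100 differed by less than 2-fold. Ly6e, a surface protein of the Ly6 family, had 3866 on the Venus High array and 2827 on the Venus Low array (0.45). Zc3hav1, the zinc finger antiviral protein, had 577 in the Venus High and 557 in the Venus Low population, Rnf213, a large ubiquitin ligase, had 351 in Venus High cells, against 334 in Venus Low cells, and Rtp4 had 231 on the Venus High array and 227 on the Venus Low array. Their differences of 0.05, 0.07 and 0.03 lie below the SD between probe sets.

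**Figure D5:**
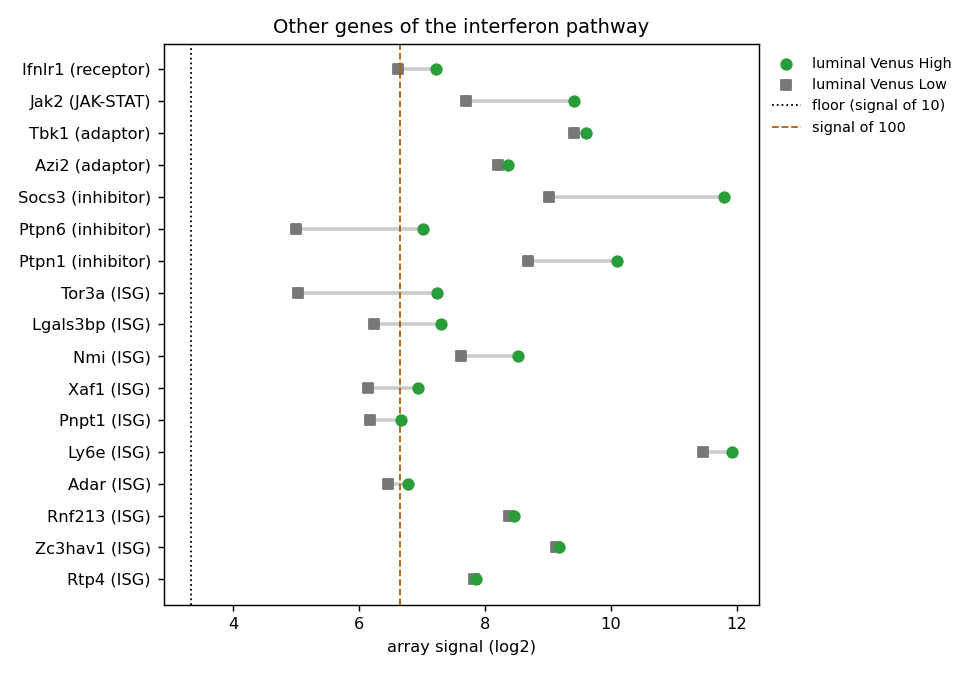
Array signal (log2, horizontal axis) of the 17 genes of the pathway lists that reached a signal of 100, with green circles for Venus High and grey squares for Venus Low cells (1 array each). Dotted and dashed lines stand at the floor and at a signal of 100. Socs3, Ptpn6, Tor3a and Jak2 show wide gaps, while Rtp4, Zc3hav1 and Rnf213 nearly coincide.

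The identity of the sorted cells was checked against marker lists. The luminal genes Krt8, Krt19 and Cd24a all had log2 values above 11 in both populations, namely 13.22, 12.94 and 13.17 in Venus High cells and 13.13, 11.96 and 12.39 in Venus Low cells. The other luminal markers of the list of 8, Krt18, Epcam, Muc1, Cldn4 and Cldn7, are not analysed here. All 7 hormone-sensing markers in the table differed by 4-fold or more, with the higher signal in Venus High cells. Prlr and Areg, also on that list, are not analysed here. The 5 basal and myoepithelial markers in the table, Krt14 and Acta2 among them, were at the floor on both arrays. Krt5, Oxtr and Mylk are not analysed here. For every list here, probe sets higher in Venus Low cells are absent from the table, so such signal could not be seen. Of 7 fibroblast and endothelial markers in the table, 0 reached 100, and Dcn, a matrix proteoglycan of fibroblasts, had a log2 value of 6.01 in the Venus High and 4.89 in the Venus Low population. The summed signal of these 7 was 134 in Venus High cells, against 92.5 in Venus Low cells, and Col3a1, Lum and Cdh5 were at the floor on both arrays. Whether stromal cells had a part in the values of the interferon genes was not tested. The alveolar progenitor markers are not analysed here.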

How the data were processed

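Both luminal populations (Venus High and Venus Low), 200000 cells each from a pool of 3 mice, gave total RNA with an integrity number above 9.4, of which 250 ng was labelled per array. The authors deposited log2 signals per probe set, which they had log2-transformed and then normalized and centred per sample in BRB Array software. MAS5 is named in the submitters' processing notes. No source used here states the scaling factor, and whether both arrays share a scale is unknown. The lowest value equals log2 of 10 and was taken as a floor. Probe sets with 1 symbol in the platform annotation (22223) were used, those with several (602) or none listed (6513) were not, and symbols were updated through gene identifiers in RefSeq (GRCm38.p6). A gene took the value of its brightest probe set by mean log2 signal, and a gene reached the minimum when its higher signal was at least 100. The members, gene lists and name rule were chosen with earlier results of these data known. Named were every IRF in the table, members at least 4-fold higher, up to 5 members of each role and up to 4 genes of each pathway list with the largest differences among those that reached 100, and genes checking the sort. Other genes, the remaining TRIM and PARP members and the nearly equal pathway genes among them, were chosen after their values were seen. With 1 array per population no p-values were computed. The alternatives tried were rescaling (median centring or quantile normalization), other floors (32 or 100), a median over all probe sets of a gene, dropping cross-hybridizing or shared probe sets (suffix x, s or a), other signal minimums (50, 200 or none), symbols not updated, an 8-fold threshold, and members without TRIM and PARP. Calculations used pandas 2.3.3 and numpy 2.4.6 under Python 3.11.15, and plots used matplotlib 3.10.9.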

Additional observations from a re-analysis of the deposited data

Results flagged for a closer look

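Of the 11 probe sets whose annotation joins a member with another gene, which no comparison above uses, 2 reached a signal of 100. The probe set shared by H2aw and Trim17 had a log2 signal of 8.17 on the Venus High array and 6.70 on the Venus Low array, and the one shared by Parp10 and Plec had 7.02 in the Venus High and 6.32 in the Venus Low population. Which gene of each pair gave the signal cannot be told apart. The single-symbol probe set of Trim17 was at the floor on both arrays.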

How the results depend on the processing

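Counts of members at least 4-fold higher (6) and 2-fold higher (14) fell to 3 and 7 with median centring and to 3 and 6 with quantile normalization. They fell to 1 and 6 with the floor at 100 and to 2 and 6 with a signal minimum of 200. Without the TRIM and PARP families they were 3 and 8. At 8-fold 3 members passed, and no share of all genes was taken at that threshold. Fewer members were counted at the minimum of 200 (13) and without TRIM and PARP (14). There 46.2% and 57.1% of the members passed 2-fold, against 21.9% and 21.6% of all genes. At 4-fold these shares were 15.4% and 21.4% of the members, against 9.24% and 8.58% of all genes. With quantile normalization 10% of the members and 5.22% of all genes passed 4-fold. At 2-fold these were 20.0% of the members and 9.89% of all genes. With the floor at 100, 3.33% of the members and 4.39% of all genes passed 4-fold, and 20.0% of the members and 15.1% of all genes passed 2-fold. The median difference of the members (0.70) was 0.038 with median centring, -0.10 with quantile normalization, 1.12 with a median over all probe sets of a gene, 1.08 without probe sets of suffix x, s or a, 0.11 without a signal minimum and 1.39 without TRIM and PARP. The median of all genes was -0.24 with median centring and -0.26 with quantile normalization. The 6 of 17 pathway genes at least 2-fold higher became 3 of 17 with the floor at 100, against 15.1% of all genes. Their count was also 3 with a signal minimum of 200, where 21.9% of all genes passed 2-fold. Without a minimum it was 11 of 52, against 9.93% of all genes. Iigp1, Usp18 and Trim35 were at least 4-fold higher under both rescalings. Other alternatives kept these counts within 1.5 times and the median within the SD between probe sets. Of 51 single genes, 26 had a negative difference after median centring, which subtracts the same value from each. Leaving out a replicate was not possible with 1 array per population. No paired analysis was possible because each population has a single array.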
